A study of Homo sapiens with 12 samples.

Results

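Cytosolic heat shock chaperones and the proteins that regulate them were followed through 12 Affymetrix arrays of SKM1, an established human cell line grown from a myeloid leukaemia. The set is a fixed list of 32 gene symbols, and its members are the rows of the deposited table whose platform-annotation symbol is on it. Of these, 29 were measured among 28125 genes in all. HSPE1, AHSA1 and HSF2 are not analysed here. The list reaches beyond the cytosol, since HSPD1 encodes a mitochondrial chaperonin and SERPINH1 a collagen chaperone of the endoplasmic reticulum. Cells received APR-246 and 5-azacytidine together (APR-AZA), APR-246 alone (APR), 5-azacytidine alone (AZA) or no drug (NT), with 3 arrays in each group. Drug doses were the IC50 of each, an inhibitory concentration, and cells were harvested for RNA after 18 h, with 250 ng labelled per array. The labels state no concentrations. Nor do they say whether a group's arrays stem from separate cultures, and p-values therefore speak of the spread between these arrays alone, which may be technical.

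Chaperones bind unfolded or newly made proteins and keep them from clumping while they fold. HSP70 proteins do so in cycles of ATP use, in which J-domain proteins deliver the client and nucleotide exchange factors of the HSP110 and BAG families release it, and HSP90 then finishes the folding of kinases and steroid receptors with the help of its own co-chaperones. When unfolded proteins build up, the transcription factor HSF1 binds heat shock elements near the starts of these genes and turns them on, and the inducible HSP70 genes HSPA1A and HSPA1B are its best known targets. APR-246 is a prodrug whose product binds thiols in proteins and glutathione. 5-azacytidine resembles cytidine, enters new RNA and DNA in its place, and traps the enzymes that methylate DNA.

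All values are RMA signals on the log2 scale as the authors deposited them, where a difference of 1 is a 2-fold change. Changes are differences of group means with the moderated standard error of limma. A gene is called where its p-value, adjusted over all 28125 genes by the Benjamini-Hochberg procedure, is under 0.05. Array medians lay between 4.71 and 4.79, and arrays of one group correlated at 0.9938 to 0.9956 over all genes. Of 10 myeloid markers, 8 were measured, and their mean log2 signals in NT cells ran between 6.70 and 12.99. Their summed linear signal was 9198 to 10030 in APR-AZA cells, 13290 to 13990 in APR cells, 9002 to 10090 in AZA cells and 14210 to 15630 in NT cells, so it was lower on the 6 arrays with AZA. The markers did not all go one way: in AZA cells against NT cells 4 of the 8 were called lower, among them LYZ at -0.48 ± 0.08 (adjusted p = 4.72e-04) and MPO at -1.40 ± 0.11 (adjusted p = 1.10e-06), the 2 genes that weigh most in the summed signal, and 2 were called higher, SPI1 at 0.53 ± 0.07 (adjusted p = 8.64e-05) and ANPEP at 0.55 ± 0.10 (adjusted p = 0.00102). Over all genes 11.1% were called lower and 9.79% higher in AZA cells against NT cells. The part of these markers in the results below was not tested. Markers of other cell types summed to 1230 to 1341 in APR-AZA cells, 1308 to 1475 in APR cells, 1299 to 1312 in AZA cells and 1368 to 1457 in NT cells over 21 measured genes. Epithelial markers made up 866.6 to 961.8 of the sum in NT cells, where EPCAM was bright, with a mean log2 signal of 9.67. In APR-AZA cells against NT cells 1 of the 21, an epithelial marker, was called lower and 0 higher. Over all genes these shares were 11.9% and 10.4%. Fewer cells of a type and less RNA per cell cannot be told apart in such bulk samples.

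Cells given AZA had less mRNA of most chaperones that changed, while a few members were higher. With AZA alone, 12 of the 29 members were lower than in NT cells and 3 were higher, which together is 51.7% of the members against 20.9% of all genes called in that comparison. The lower calls took in 41.4% of members and 11.1% of all genes, and the higher calls 10.3% of members and 9.79% of all genes. The median change over the members was -0.18, against -0.0037 over all genes. With both drugs, 13 members were lower and 4 higher than in NT cells, or 58.6% of members against 22.3% of all genes (11.9% lower and 10.4% higher), and the median change was -0.26, against -0.003 over all genes. With APR alone no member was called, against 0.00356% of all genes, which is 1 gene. Called in both comparisons of AZA-containing treatments with NT were HSPA4L, FKBP4, BAG1, HSPB1, HSPA1A, HSPA1B, CACYBP, HSPA4, HSPA1L, PTGES3, DNAJA1 and HSPD1, all lower, and DNAJB4, SERPINH1 and ZFAND2A, all higher. The 2 comparisons share the NT arrays, so they are not independent of each other. Members were chosen with earlier results of these data known, so their shares describe the list. The shares over all genes, here and below, include dim genes, since no filter on signal was used. Most members were brighter than the array medians of 4.71 to 4.79, and a share among genes of like signal was not analysed here.

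**Figure D1:**
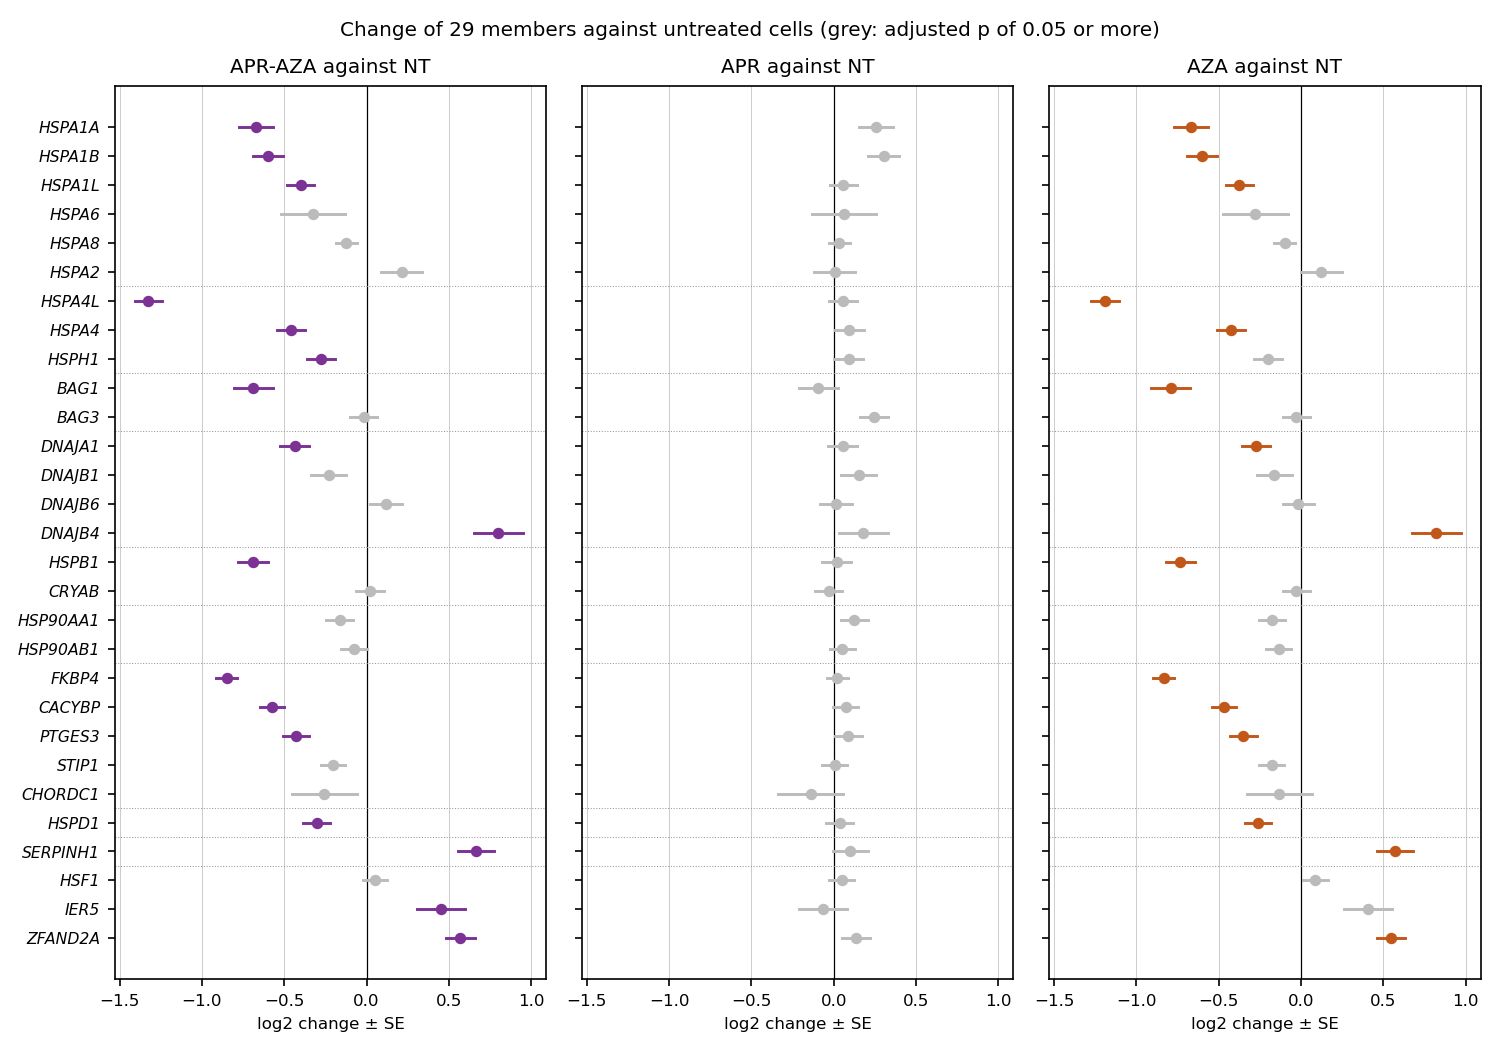
Change of each of the 29 members against untreated cells (NT) in APR-AZA, APR and AZA cells, as the log2 difference of group means (x axis) with its standard error, in coloured points where limma's adjusted p was under 0.05 and in grey otherwise; dotted lines separate the roles. The APR-AZA and AZA panels hold 17 and 15 coloured points, most of them left of 0, and the APR panel holds none.

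Among the HSP70 chaperones themselves, the stress-inducible HSPA1A and HSPA1B and the testis-enriched HSPA1L were lower with AZA. HSPA1A had 11.02, 10.95 and 10.95 in APR-AZA cells, 11.67, 12.11 and 11.92 in APR cells, 11.002, 11.03 and 10.90 in AZA cells and 11.74, 11.63 and 11.56 in NT cells. All 6 arrays with AZA lay below all 6 without it, and the highest values were those of APR replicates 2 and 3. The change in AZA cells against NT cells was -0.67 ± 0.10 (adjusted p = 3.52e-04), a 1.59-fold lower signal, and with both drugs it was -0.67 ± 0.10 (adjusted p = 3.07e-04). HSPA1B had 9.96, 9.995 and 9.98 in APR-AZA cells, 10.70, 11.01 and 10.92 in APR cells, 9.92, 9.98 and 10.02 in AZA cells and 10.67, 10.62 and 10.44 in NT cells. The 6 arrays with AZA were again the lowest, without overlap, and the APR arrays lay above the NT arrays. HSPA1B changed by -0.60 ± 0.09 (adjusted p = 3.16e-04) in AZA cells and by -0.60 ± 0.09 (adjusted p = 3.08e-04) in APR-AZA cells. These genes are near-identical copies, so probes for one may read the other and their values are not separate evidence. HSPA1L had 5.16, 5.37 and 5.27 in APR-AZA cells, 5.61, 5.80 and 5.77 in APR cells, 5.26, 5.34 and 5.27 in AZA cells and 5.74, 5.64 and 5.61 in NT cells. This is again a split by AZA without overlap, at -0.37 ± 0.08 (adjusted p = 0.00484) in AZA cells against NT cells and -0.40 ± 0.08 (adjusted p = 0.00287) in APR-AZA cells. Signals of HSPA1L were low, at 5.16 to 5.80, and whether its probes also read HSPA1A or HSPA1B was not tested.

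The similarity of the pair extends upstream of the coding parts, and the stretch before each start is shown because HSPA1A and HSPA1B moved together. The 250 bases before the annotated starts, from RefSeq on GRCh38.p14, lie at chr6:31815293-31815542 for HSPA1A and chr6:31827488-31827737 for HSPA1B, both on the plus strand. Capitals mark the 2-unit heat shock element found in each.
HSPA1A: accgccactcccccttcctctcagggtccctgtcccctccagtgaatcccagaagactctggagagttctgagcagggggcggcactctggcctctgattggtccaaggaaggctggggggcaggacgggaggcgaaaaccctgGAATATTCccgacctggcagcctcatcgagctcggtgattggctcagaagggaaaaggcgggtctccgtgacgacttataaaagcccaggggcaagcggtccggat
HSPA1B: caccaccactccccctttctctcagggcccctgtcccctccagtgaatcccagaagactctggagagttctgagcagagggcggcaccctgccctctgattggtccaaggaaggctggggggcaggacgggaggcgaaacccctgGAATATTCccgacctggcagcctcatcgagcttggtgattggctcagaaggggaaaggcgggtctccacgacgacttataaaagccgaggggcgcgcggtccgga
Aligned to each other, the stretches share 235 bases, with 14 mismatches and 2 gap positions, or 93.6% identity. HSPA1L starts 259 bases from HSPA1A on the other strand, so the same capitals fall before its start too.

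The constitutive HSP70 did not pass the test. HSPA8, which does most folding work in unstressed cells, stood at -0.10 ± 0.06 (adjusted p = 0.365) in AZA cells and at -0.12 ± 0.06 (adjusted p = 0.215) in APR-AZA cells, although its 6 arrays with AZA (12.83 to 12.90) all lay below the 6 without (12.96 to 13.02). HSPA6, a strictly inducible HSP70, had dim signals that overlapped between groups, with group means of 3.91 in APR-AZA cells, 4.30 in APR cells, 3.96 in AZA cells and 4.23 in NT cells. HSPA2, known for its role in sperm formation, averaged 5.25 in APR-AZA cells, 5.05 in APR cells, 5.16 in AZA cells and 5.04 in NT cells, with overlap. RMA compresses such low signals, so differences of dim genes are understated.

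The HSP110 exchange factors held the largest change of the set. HSPA4L, an HSP110 protein that releases nucleotide and client from HSP70, had 9.29, 9.26 and 9.23 in APR-AZA cells, 10.77, 10.59 and 10.57 in APR cells, 9.48, 9.37 and 9.34 in AZA cells and 10.47, 10.59 and 10.69 in NT cells. The 6 arrays with AZA all lay far below the 6 without. HSPA4L changed by -1.19 ± 0.08 (adjusted p = 4.50e-07) in AZA cells, a 2.28-fold lower signal, and by -1.33 ± 0.08 (adjusted p = 1.58e-07) in APR-AZA cells, or 2.51-fold lower. Its relative HSPA4 had 10.57, 10.52 and 10.46 in APR-AZA cells, 11.10, 11.13 and 10.98 in APR cells, 10.64, 10.47 and 10.53 in AZA cells and 11.01, 10.82 and 11.09 in NT cells. HSPA4 was lower by a smaller margin, again with no overlap, at -0.42 ± 0.09 (adjusted p = 0.00299) in AZA cells and -0.46 ± 0.09 (adjusted p = 0.00158) in APR-AZA cells. The third member, HSPH1, had 11.74, 11.76 and 11.65 in APR-AZA cells, 12.15, 12.13 and 11.96 in APR cells, 11.92, 11.73 and 11.71 in AZA cells and 12.04, 11.91 and 12.03 in NT cells. AZA replicate 1 lay between the NT arrays, so the groups overlapped, and HSPH1 was not called with AZA alone, at -0.20 ± 0.09 (adjusted p = 0.137). With both drugs it was called lower, at -0.28 ± 0.09 (adjusted p = 0.0351), but that call was lost without APR-AZA replicate 1, 2 or 3 (adjusted p = 0.0719, 0.0587 and 0.125), without NT replicate 1 or 3 (0.0996 and 0.101) and after repeated quantile normalization (0.0596).

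The BAG exchange factors parted. BAG1, which links HSP70 to the proteasome, had 8.001, 7.81 and 7.85 in APR-AZA cells, 8.32, 8.45 and 8.67 in APR cells, 7.65, 7.80 and 7.89 in AZA cells and 8.79, 8.51 and 8.42 in NT cells. All arrays with AZA were below all arrays without. The change was -0.79 ± 0.12 (adjusted p = 2.63e-04) in AZA cells and -0.69 ± 0.12 (adjusted p = 7.33e-04) in APR-AZA cells. BAG3, which steers clients of HSP70 into autophagy, had 8.58, 8.54 and 8.56 in APR-AZA cells, 8.68, 8.88 and 8.90 in APR cells, 8.51, 8.51 and 8.63 in AZA cells and 8.62, 8.63 and 8.47 in NT cells. Its APR arrays were the highest, while APR-AZA, AZA and NT arrays overlapped, and it was not called against NT, at -0.03 ± 0.08 (adjusted p = 0.892) in AZA cells and -0.02 ± 0.08 (adjusted p = 0.932) in APR-AZA cells.

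J-domain proteins, which bring clients to HSP70, went both ways. DNAJA1 had 10.69, 10.66 and 10.75 in APR-AZA cells, 11.26, 11.27 and 11.03 in APR cells, 10.95, 10.88 and 10.75 in AZA cells and 11.15, 11.06 and 11.20 in NT cells. Its 6 arrays with AZA all lay below the 6 without, and it was called lower in AZA cells at -0.27 ± 0.09 (adjusted p = 0.0415) and in APR-AZA cells at -0.44 ± 0.09 (adjusted p = 0.00224). The AZA call was lost without AZA replicate 2 or 3 (adjusted p = 0.0851 and 0.158), without NT replicate 1 or 3 (0.0975 and 0.128), with the compared groups fitted alone (0.0764) and after repeated quantile normalization (0.0504). DNAJB4 had 7.44, 7.48 and 7.42 in APR-AZA cells, 6.90, 6.87 and 6.71 in APR cells, 7.67, 7.30 and 7.44 in AZA cells and 6.33, 6.57 and 7.04 in NT cells. This member was higher on every array with AZA than on any without, although NT replicate 3 stood well above the other NT arrays. The change was 0.82 ± 0.15 (adjusted p = 0.00119) in AZA cells, 1.77-fold higher, and 0.80 ± 0.15 (adjusted p = 0.00137) in APR-AZA cells. DNAJB1, the main stress-inducible partner of HSP70, had 8.26, 8.24 and 8.37 in APR-AZA cells, 8.45, 8.78 and 8.80 in APR cells, 8.18, 8.45 and 8.44 in AZA cells and 8.56, 8.54 and 8.47 in NT cells. Arrays of AZA cells lay below those of NT cells by a narrow margin, and DNAJB1 was not called against NT, at -0.16 ± 0.11 (adjusted p = 0.371) in AZA cells and -0.23 ± 0.11 (adjusted p = 0.162) in APR-AZA cells. DNAJB6, a suppressor of polyglutamine aggregation, was called in no comparison, with group means of 7.19 in APR-AZA cells, 7.09 in APR cells, 7.06 in AZA cells and 7.07 in NT cells.

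**Figure D2:**
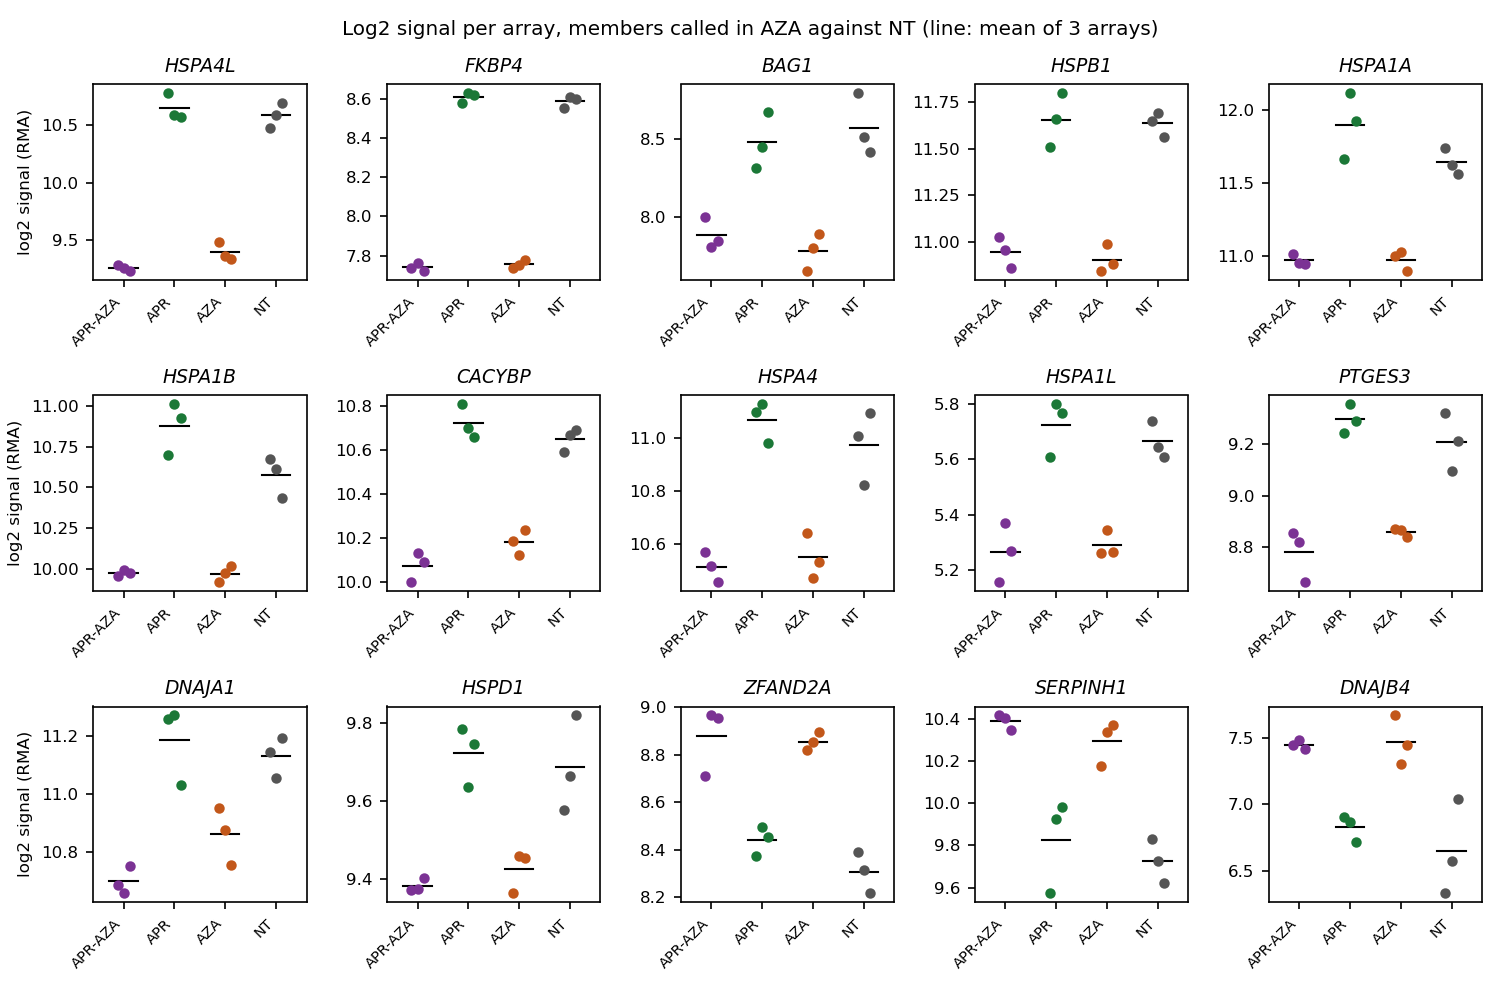
Log2 RMA signal (y axis, scaled per gene) on each of the 12 arrays for the 15 members called in AZA cells against NT cells, with 1 point per array and a line at the mean of 3 arrays. In the first 12 panels the APR-AZA and AZA points lie below all APR and NT points, and in the panels of ZFAND2A, SERPINH1 and DNAJB4 they lie above them.

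Of the small heat shock proteins, which hold unfolded clients without using ATP, HSPB1 was lower. HSPB1 had 11.02, 10.95 and 10.86 in APR-AZA cells, 11.51, 11.66 and 11.80 in APR cells, 10.84, 10.99 and 10.88 in AZA cells and 11.65, 11.69 and 11.56 in NT cells. No array with AZA reached the lowest array without it, and the change was -0.73 ± 0.09 (adjusted p = 4.36e-05) in AZA cells, 1.66-fold lower, and -0.69 ± 0.09 (adjusted p = 6.48e-05) in APR-AZA cells. CRYAB, best known from the eye lens and muscle, had signals of 3.61 to 3.82 on all 12 arrays with overlap between all groups.

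Neither HSP90 gene was called against NT. HSP90AA1, the inducible form, had 5.54, 5.63 and 5.70 in APR-AZA cells, 5.98, 5.78 and 5.97 in APR cells, 5.63, 5.62 and 5.57 in AZA cells and 5.81, 5.71 and 5.83 in NT cells. All arrays with AZA lay just below all arrays without, with differences of -0.18 ± 0.08 (adjusted p = 0.159) in AZA cells and -0.16 ± 0.08 (adjusted p = 0.192) in APR-AZA cells. The signal of HSP90AA1 was not far above the array medians of 4.71 to 4.79, so its differences, here and below, may be understated. HSP90AB1, the constitutive form, was called in no comparison, with means of 11.76 in APR-AZA cells, 11.88 in APR cells, 11.70 in AZA cells and 11.83 in NT cells.

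Of 5 measured co-chaperones of HSP90, 3 were called lower with AZA alone and the same 3 with both drugs. Over all genes these shares were 11.1% and 11.9%. FKBP4, an immunophilin that acts with HSP90 on steroid receptors, had 7.74, 7.76 and 7.72 in APR-AZA cells, 8.58, 8.63 and 8.62 in APR cells, 7.74, 7.75 and 7.78 in AZA cells and 8.55, 8.61 and 8.60 in NT cells. The SD within a group was 0.03 or less, and the 6 arrays with AZA stood clear of the 6 without. FKBP4 changed by -0.83 ± 0.06 (adjusted p = 8.44e-07) in AZA cells, 1.78-fold lower, and by -0.85 ± 0.06 (adjusted p = 6.29e-07) in APR-AZA cells. CACYBP, which binds the ubiquitin ligase SIAH1 and holds a domain like that of p23, had 9.999, 10.13 and 10.09 in APR-AZA cells, 10.81, 10.70 and 10.66 in APR cells, 10.19, 10.12 and 10.24 in AZA cells and 10.59, 10.66 and 10.69 in NT cells. The groups with and without AZA did not overlap, at -0.47 ± 0.07 (adjusted p = 4.58e-04) in AZA cells and -0.57 ± 0.07 (adjusted p = 7.49e-05) in APR-AZA cells. PTGES3, the co-chaperone p23 that holds HSP90 in its closed form, had 8.86, 8.82 and 8.66 in APR-AZA cells, 9.24, 9.35 and 9.29 in APR cells, 8.87, 8.87 and 8.84 in AZA cells and 9.32, 9.10 and 9.21 in NT cells. It too split by AZA without overlap, at -0.35 ± 0.08 (adjusted p = 0.00679) in AZA cells and -0.43 ± 0.08 (adjusted p = 0.00155) in APR-AZA cells. STIP1, which hands clients from HSP70 to HSP90, was called in no comparison, at -0.18 ± 0.08 (adjusted p = 0.134) in AZA cells, though its arrays with AZA (11.25 to 11.39) lay below those without (11.42 to 11.62). CHORDC1 was not called either, and its 3 AZA arrays spread from 6.21 to 7.29.

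The members outside the cytosol differed in direction. HSPD1, the mitochondrial chaperonin HSP60, had 9.37, 9.37 and 9.40 in APR-AZA cells, 9.79, 9.64 and 9.75 in APR cells, 9.36, 9.46 and 9.46 in AZA cells and 9.58, 9.67 and 9.82 in NT cells. Arrays with AZA lay below those without, and HSPD1 was called lower in AZA cells at -0.26 ± 0.08 (adjusted p = 0.0338) and in APR-AZA cells at -0.30 ± 0.08 (adjusted p = 0.014). The AZA call did not hold without AZA replicate 1, 2 or 3 (adjusted p = 0.115, 0.0623 and 0.0624), without NT replicate 2 or 3 (0.0672 and 0.137) or with the compared groups alone (0.0991), and the APR-AZA call did not hold without NT replicate 3 (0.0639). SERPINH1, the collagen chaperone HSP47, had 10.42, 10.41 and 10.35 in APR-AZA cells, 9.57, 9.93 and 9.98 in APR cells, 10.18, 10.34 and 10.37 in AZA cells and 9.83, 9.73 and 9.62 in NT cells. It was higher on each array with AZA than on any without, at 0.57 ± 0.11 (adjusted p = 0.00156) in AZA cells and 0.66 ± 0.11 (adjusted p = 4.50e-04) in APR-AZA cells.

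Of 3 measured members grouped as regulators and stress-induced genes, ZFAND2A, IER5 and HSF1, none was called lower against NT. Over all genes 11.1% were called lower with AZA alone and 11.9% with both drugs. Other stress-inducible members, such as HSPA1A and HSPA1B, stand in the groups above and were called lower. ZFAND2A, an arsenite-inducible protein that binds the proteasome, had 8.71, 8.97 and 8.96 in APR-AZA cells, 8.38, 8.50 and 8.46 in APR cells, 8.82, 8.85 and 8.90 in AZA cells and 8.39, 8.31 and 8.22 in NT cells. No array with AZA came down to the highest array without it, and the change was 0.55 ± 0.09 (adjusted p = 3.90e-04) in AZA cells and 0.57 ± 0.09 (adjusted p = 2.62e-04) in APR-AZA cells. IER5, an immediate early protein that promotes HSF1 activity, had 7.65, 7.64 and 7.73 in APR-AZA cells, 6.94, 7.11 and 7.42 in APR cells, 7.49, 7.75 and 7.65 in AZA cells and 7.23, 7.51 and 6.93 in NT cells. NT replicate 2 overlapped the AZA arrays, and IER5 was not called with AZA alone, at 0.41 ± 0.14 (adjusted p = 0.0677). With both drugs it was called higher at 0.45 ± 0.14 (adjusted p = 0.0399), a call that was lost without APR-AZA replicate 1, 2 or 3 (adjusted p = 0.0813, 0.0805 and 0.115), without NT replicate 1 or 3 (0.0815 and 0.172), with arrays centred on their medians (0.0569) and without moderation (0.0982). The mRNA of HSF1 itself was called in no comparison, with means of 9.26 ± 0.07 in APR-AZA cells, 9.25 ± 0.06 in APR cells, 9.29 ± 0.03 in AZA cells and 9.20 ± 0.07 in NT cells (SD, n = 3 each).

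Over the whole set, 15 members had their 6 arrays with AZA below all 6 without, as had 11.1% of all genes. Another 3 members, DNAJB4, SERPINH1 and ZFAND2A, had them above, as had 9.35% of all genes. The remaining 11 overlapped. Of the 3 AZA arrays against the 3 NT arrays alone, 17 members lay wholly below and 3 wholly above, against 17% and 15.1% of all genes. For the APR-AZA arrays against the NT arrays these numbers were 17 and 5, against 18.1% and 16.9%.

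**Figure D3:**
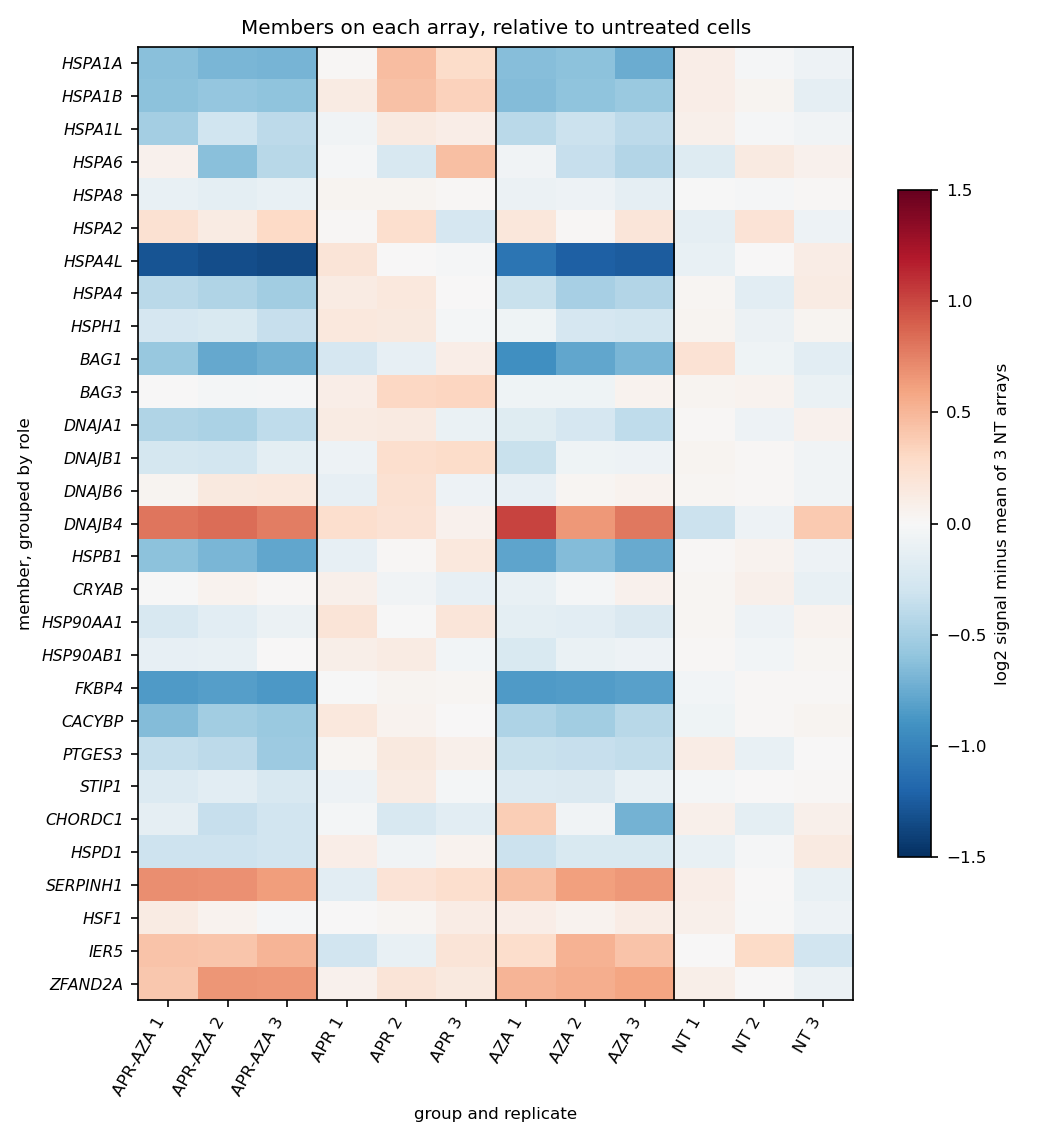
Log2 signal of each of the 29 members (rows, grouped by role) on each array (columns: 3 each of APR-AZA, APR, AZA and NT) minus the mean of the 3 NT arrays. The APR-AZA and AZA columns share the same blue and red rows, deepest blue for HSPA4L and red for DNAJB4, and in the APR columns HSPA1A, HSPA1B and BAG3 are redder than in the NT columns.

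APR alone left no member past the threshold, and the sizes of its changes were small. By limma 3 of the 29 members had an unadjusted p under 0.05, against 3.89% of all genes. These were HSPA1B at 0.30 ± 0.09 (adjusted p = 0.9998), HSPA1A at 0.26 ± 0.10 (adjusted p = 0.9998) and BAG3 at 0.24 ± 0.08 (adjusted p = 0.9998). Probes for HSPA1A and HSPA1B may read each other, so this pair does not count separately. The 3 arrays of APR cells lay above the 3 of NT cells for HSPA1B and BAG3, as they did for 3.44% of all genes, and below for no member, against 4.04% of all genes. For HSPA1A, APR replicate 1 (11.67) fell among the NT arrays. The change of HSPA1A ran between 0.15 without APR replicate 2 and 0.37 without APR replicate 1. The 95% intervals, which are not adjusted for the number of genes, were 0.10 to 0.50 for HSPA1B and 0.03 to 0.48 for HSPA1A. Changes of all 29 members lay between -0.14 and 0.30. Of these, 25 were above 0, as were 13984 of 28125 genes, and the median was 0.06, against -0.00067 over all genes. The median was 0.09 both without APR replicate 3 and without NT replicate 3.

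Adding APR to AZA changed no member by the test either. In APR-AZA cells against AZA cells, limma called 0 of 29 members and 0% of all genes, and 0 members had an unadjusted p under 0.05, against 4.69% of all genes. The median change was -0.02, and members ran between -0.16 and 0.13. Only HSPA4L and DNAJA1 had non-overlapping arrays, both below, as had 5.77% of all genes. None had them above, against 5.8% of all genes. HSPA1A stood at -0.0039 ± 0.10 (adjusted p = 0.999) with a 95% interval of -0.23 to 0.22, and HSPA1B at 0.0045 ± 0.09 (adjusted p = 0.998) with one of -0.20 to 0.20.

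Whether the change with APR differed in the presence of AZA was tested as non-additivity, which takes the separate changes with APR and with AZA away from the change with both. No member and 0% of all genes were called by limma, with 1 member and 3.52% of all genes at an unadjusted p under 0.05. That member was HSPA1B, at -0.30 ± 0.13 (adjusted p = 0.9998), and HSPA1A stood at -0.26 ± 0.15 (adjusted p = 0.9998) and BAG3 at -0.23 ± 0.12 (adjusted p = 0.9998). The 95% intervals were -0.58 to -0.02 for HSPA1B and -0.58 to 0.06 for HSPA1A. A missed threshold does not show that the changes were alike.

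**Figure D4:**
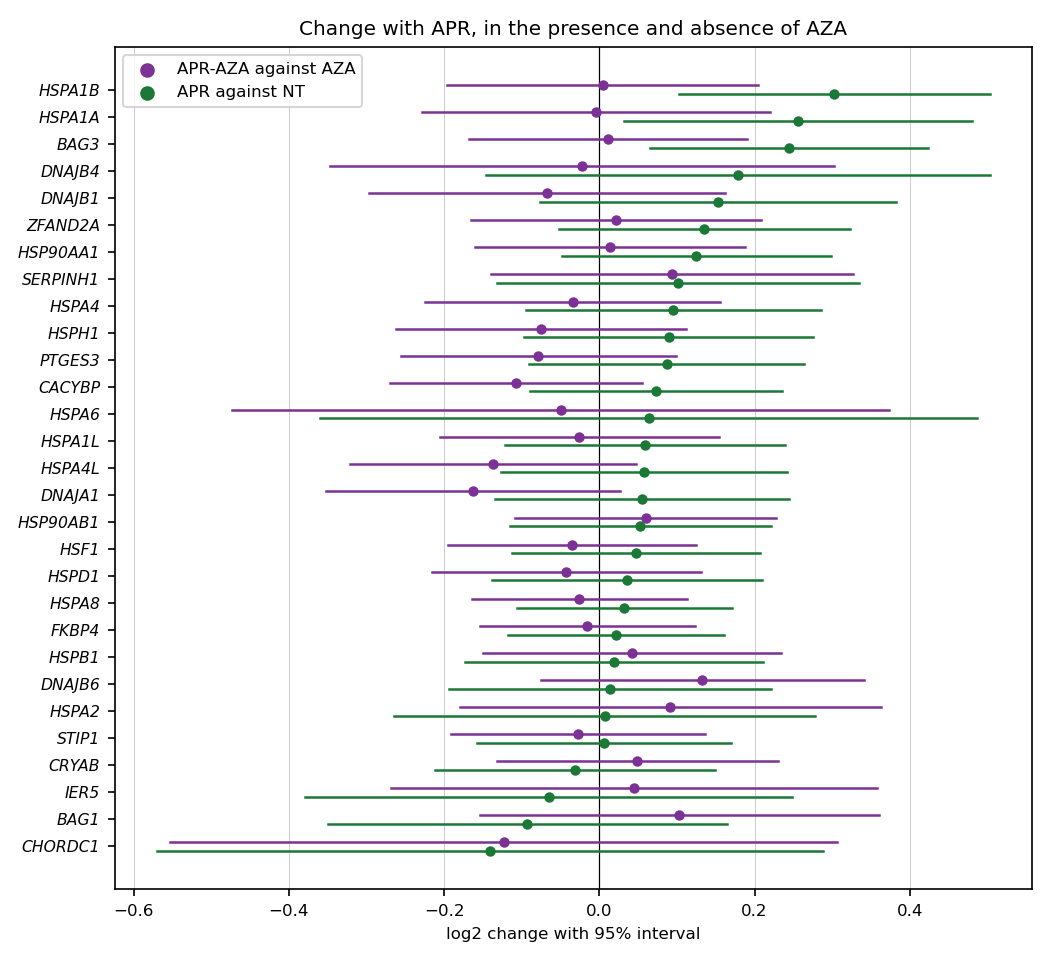
Change with APR in each member, as the log2 difference with its unadjusted 95% interval, in the presence of AZA (APR-AZA against AZA, purple) and in its absence (APR against NT, green), ordered by the green points. HSPA1B, HSPA1A and BAG3 have the green points farthest right, at 0.30, 0.26 and 0.24, while their purple points lie within 0.02 of 0. They are named for those green points, so the contrast with the purple ones is not separate support.

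Adding AZA to APR was followed by lower signals in most members that were called. By limma, 16 members were lower and 4 higher in APR-AZA cells than in APR cells, or 69% of members against 20.7% of all genes (11.2% lower and 9.45% higher), and the median change was -0.34. The arrays did not overlap in 18 members below and 4 above, against 17.8% and 16.4% of all genes. HSPA4L changed by -1.38 ± 0.08 (adjusted p = 1.30e-07), HSPA1A by -0.93 ± 0.10 (adjusted p = 2.34e-05) and HSPA1B by -0.90 ± 0.09 (adjusted p = 1.11e-05). The 3 members called lower here and in neither comparison with NT were DNAJB1 at -0.38 ± 0.11 (adjusted p = 0.0195), HSP90AA1 at -0.29 ± 0.08 (adjusted p = 0.0197) and BAG3 at -0.26 ± 0.08 (adjusted p = 0.04). Each of these calls was lost under some alternatives. DNAJB1 lost it without APR-AZA replicate 1 or 2 (adjusted p = 0.0623 and 0.0693) and without APR replicate 2 or 3 (0.0806 and 0.082). HSP90AA1 lost it without APR-AZA replicate 1 or 2 (0.0858 and 0.0542), without APR replicate 1 or 3 (0.0733 and 0.0714), with the compared groups alone (0.0573) and with trended, robust variances (0.0501). BAG3 lost it without APR-AZA replicate 1, 2 or 3 (0.0805, 0.11 and 0.0972), without APR replicate 2 or 3 (0.132 and 0.136) and with the compared groups alone (0.0749). IER5 was higher at 0.52 ± 0.14 (adjusted p = 0.0209), which did not hold without APR-AZA replicate 3 (0.0705), without APR replicate 1 or 2 (0.0954 and 0.0635) or without moderation (0.0648).

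Further chaperone lists, made of genes that are not members, were read in the same fit. They were chosen with earlier results of these data known, so their counts describe the lists and are not independent support. None of their genes was called with APR alone or in APR-AZA cells against AZA cells. Among 15 measured genes listed as HSP90 co-chaperones, 6 were lower and 1 higher in AZA cells than in NT cells. Over all genes 11.1% were lower and 9.79% higher. The median change of the list was -0.17. The 1 called higher was AHSA2P, a pseudogene by its symbol, at 0.41 ± 0.11 (adjusted p = 0.0178). The largest falls were those of FKBP5, an immunophilin induced by glucocorticoids, at -0.94 ± 0.07 (adjusted p = 9.34e-07), and of PPP5C, a phosphatase bound to HSP90, at -0.79 ± 0.10 (adjusted p = 9.56e-05). All 11 called genes of the 16 listed under the TRiC chaperonin and prefoldin were lower, against 11.1% of all genes. These complexes fold actin and tubulin, but the list also holds the prefoldin-like URI1 and PDRG1. URI1 fell most, at -0.56 ± 0.08 (adjusted p = 2.72e-04), and CCT2, a TRiC subunit, stood at -0.49 ± 0.07 (adjusted p = 1.96e-04). The count of 11 became 5 to 7 without AZA replicate 1 or 2 or NT replicate 1 or 3, and 5 with the compared groups alone. With both drugs it was 10, against 11.9% of all genes, and 6 without APR-AZA replicate 3.

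Partners of HSP70 outside the set moved in both directions, with 7 lower and 4 higher of 21 in AZA cells against 11.1% and 9.79% of all genes. HSPA13, an HSP70 relative of the endoplasmic reticulum, rose at 1.07 ± 0.08 (adjusted p = 5.48e-07), and HSPA14, a ribosome-associated one, fell at -0.77 ± 0.12 (adjusted p = 2.67e-04). Without AZA replicate 1 the list held 7 calls. Of 16 mitochondrial chaperones and proteases, 5 were lower and 2 higher, against the same 11.1% and 9.79% of all genes, among them TRAP1, the mitochondrial HSP90, at -0.86 ± 0.10 (adjusted p = 2.08e-05) and the protease LONP1 at 0.86 ± 0.13 (adjusted p = 2.30e-04). Of 6 other small heat shock proteins only HSPB6 was called, at 0.35 ± 0.11 (adjusted p = 0.0396), against 9.79% of all genes called higher, and it missed the threshold without AZA replicate 1 or 3 (0.0901 and 0.154), without NT replicate 1 or 2 (0.105 and 0.158) with array weights (0.0512), with trended, robust variances (0.0531), with only the AZA and NT arrays fitted (0.0737) and with unmoderated variances (0.0736).

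Most of the listed stress-induced genes outside the set were higher. This list too was chosen with earlier results of these data known, so its counts only describe it. Of 14 measured genes known to be induced by heat or proteotoxic stress, 11 were higher and 1 lower in AZA cells, against 9.79% and 11.1% of all genes, with a median change of 0.74. In APR-AZA cells 11 were higher and 1 lower too, against 10.4% and 11.9% of all genes, with a median of 0.71. JUN, a subunit of AP-1, had 9.98, 9.90 and 10.02 in APR-AZA cells, 8.08, 8.17 and 8.18 in APR cells, 9.86, 9.91 and 9.90 in AZA cells and 8.11, 7.84 and 7.73 in NT cells. Its 6 arrays with AZA stood far above the others, at 1.999 ± 0.09 (adjusted p = 9.86e-09) in AZA cells against NT cells. SQSTM1, the autophagy receptor p62, changed by 1.86 ± 0.12 (adjusted p = 1.44e-07). Of 14 other heat shock factors and HSF1 regulators, 5 were higher and 1 lower in AZA cells, against 9.79% and 11.1% of all genes, with the acetyltransferase EP300 at 0.57 ± 0.09 (adjusted p = 4.94e-04) and the deacetylase SIRT1 at 0.51 ± 0.08 (adjusted p = 6.36e-04).

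Most members had letters of a 2-unit heat shock element near their start, both among those that fell and among those that did not. Fewer had the 3-unit letters. The element is a row of GAA units in alternating orientation, and the letters searched on both strands were TTCNNGAA or GAANNTTC for 2 units. For 3 units they were TTC, GAA and TTC or GAA, TTC and GAA with NN between neighbours, so a 3-unit match contains both 2-unit ones. RefSeq promoter windows on GRCh38.p14, from 250 bases before each annotated start to 50 after, were found for 26 of the 29 members, and not for CRYAB, FKBP4 and HSF1. A 3-unit match was present in 9 of these, or 34.6%, against 0.608% of 27305 genes with a window, and a 2-unit match in 19, or 73.1%, against 16.2%. Members were chosen as heat shock genes, so this is a description of the list and not a result of the arrays. The sites below are shown because they belong to members that were called lower, called higher or not called, with the matched units in capitals. Some members have several annotated starts, so the 26 members have 38 windows: HSPA4L has 3, and DNAJB4, HSPD1, HSP90AA1 and SERPINH1 have 2 each, of which 1 holds a match. The arrays give 1 value per gene and do not tell its starts apart. HSPA8 has 2 separate 3-unit matches, at -55 to -43 and -230 to -218 from its start, and only the nearer is shown.
HSPA4L, lower, 2 units, chr4:127782141-127782170, plus strand: tttccagatctTTCTCGAAcccgcagcttc
HSPB1, lower, 2 units, chr7:76302480-76302509, plus strand: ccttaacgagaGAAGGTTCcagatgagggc
HSPD1, lower, 3 units in 2 overlapping matches, chr2:197500062-197500090, minus strand: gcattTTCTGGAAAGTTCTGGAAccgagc
HSP90AA1, not called against NT, 3 units, chr14:102087112-102087140, minus strand: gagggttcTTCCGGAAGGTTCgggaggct
HSPA8, not called, 3 units, chr11:123062171-123062199, minus strand: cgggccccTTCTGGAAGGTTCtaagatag
CHORDC1, not called, 3 units in 3 overlapping matches, chr11:90223084-90223112, minus strand: ccgGAAAATTCGCGAAGGTTCCTGAAacg
SERPINH1, higher, 3 units, chr11:75562169-75562197, plus strand: ttccaactTTCCAGAAGTTTCtcgggacg
DNAJB4, higher, 2 units, chr1:78004830-78004859, plus strand: agcatttgctgTTCTAGAAagtacagagac
ZFAND2A, higher, 2 units, chr7:1160349-1160378, minus strand: cgaccggacacTTCGAGAAgggaagtggag
Of the 9 members with 3 units, 1 was higher, 2 lower and 6 not called in AZA cells against NT cells, with a median change of -0.14. Over all genes 9.79% were higher and 11.1% lower in that comparison. The 10 members with 2 units only had 2 higher, 5 lower and 3 not called, and a median of -0.28. Of the 7 with neither, 4 were lower and 3 not called, with a median of -0.35. The lower members with 2 units only include HSPA1A, HSPA1B and HSPA1L, which do not count separately. HSPA1A and HSPA1L share the same site, and HSPA1B is a near-identical copy of HSPA1A. Whether the change differs between these classes was not tested. A match is a run of letters and not a site shown to be bound, and a window without one says only that these letters are absent there.

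**Figure D5:**
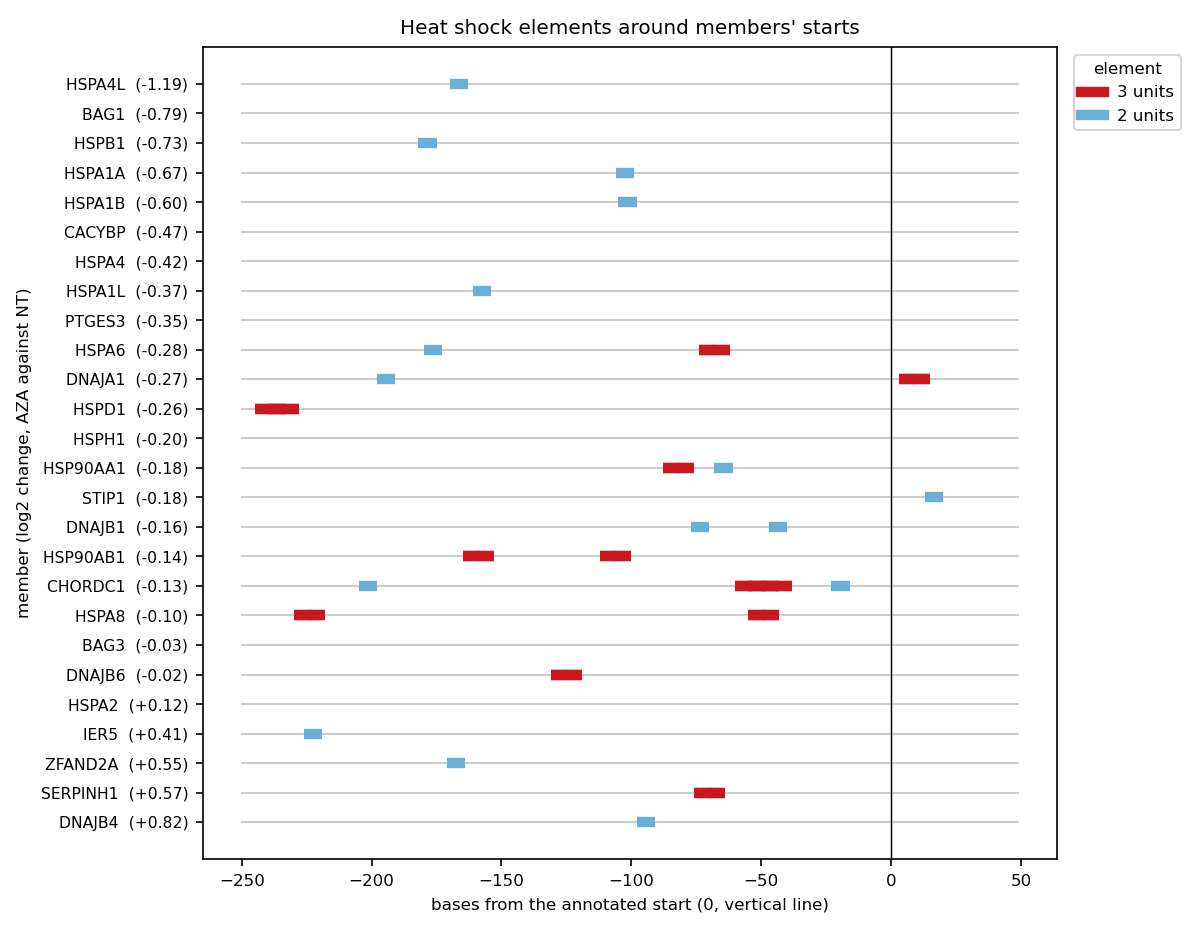
Positions of heat shock element matches (x axis, bases from the annotated start) in the promoter windows of 26 members (rows), ordered by their log2 change in AZA cells against NT cells, which stands in brackets. Red bars mark 3-unit matches and blue bars 2-unit matches; red bars stand mostly in the middle of the order, from HSPA6 at -0.28 to DNAJB6 at -0.02, with SERPINH1 at 0.57 apart.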

How the data were processed

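Total RNA from SKM1 cells, in 12 samples with 3 per group, was hybridised to Affymetrix whole-transcript arrays. The authors deposited log2 values made with RMA, and Partek is named too, per the submitters' processing notes. Neither the versions nor the chip definition are given in the sources used here. RMA equalises the arrays' distributions, so a shift of most genes one way would be removed. Of 29413 rows, 28129 had 1 gene symbol in the platform annotation, 0 several and 1284 none. Where a symbol stood on several rows (4 symbols) the brightest row was used. That gave 28125 genes, with no filter on signal.

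All 12 arrays were fitted in 1 limma 3.58.1 model in R 4.3.3 (lmFit and eBayes, no trend or robust option) with a mean per group and 8 residual degrees of freedom. Calls were made at a Benjamini-Hochberg adjusted p under 0.05. The script was tested on simulated data. Arrays have no counting depth, so their number limits the precision. No 2 arrays shared more than 0.0952% of their values.

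Members and lists were chosen with earlier results of these data known. Members called in any comparison, with HSPA1A and HSPA1B, are given on every array, and of each other list up to 3 called genes per comparison with the largest change could be named. Alternatives were leaving out the dimmest 30% of genes, repeated quantile normalization, median centring, other variance settings, compared groups alone, array weights, a replicate block and leaving out each array. Titles number the arrays 1 to 3 in each group, but same-numbered arrays did not deviate together: 3 of 18 such pairs had a correlation over 0.1. Promoter windows come from RefSeq on GRCh38.p14, matched by symbol. A planned comparison of protein sequences was not analysed here.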

Additional observations from a re-analysis of the deposited data

How the results depend on the processing

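Of 52 calls of members over 3 comparisons, 43 were kept in all alternatives run, 9 were lost at least once (DNAJA1 and HSPD1 in AZA against NT, HSPD1, HSPH1 and IER5 in APR-AZA against NT, and BAG3, DNAJB1, HSP90AA1 and IER5 in APR-AZA against APR) and 0 changed sign. When each array was left out in turn, the members called numbered 13 to 15 in AZA against NT, 14 to 17 in APR-AZA against NT, 17 to 18 in APR-AZA against APR and 0 to 0 in the other comparisons. Over all 28125 genes the same runs called 5086 to 5409 in AZA against NT. They called 5317 to 5944 in APR-AZA against NT and 4921 to 5275 in APR-AZA against APR. With all arrays these numbers were 5878, 6279 and 5813. The single gene called over all genes in APR against NT became 2 with the dimmest 30% of genes left out and 0 without moderation, with the compared groups alone and with the replicate block, and 0 to 2 when an array was left out. The median change of members ranged, when an array was left out, from 0.0434 to 0.0896 in APR against NT, from -0.23 to -0.177 in AZA against NT, from -0.285 to -0.212 in APR-AZA against NT, from -0.339 to -0.258 in APR-AZA against APR and from -0.115 to -0.059 for non-additivity. It was -0.285 in APR-AZA against NT with arrays centred on their medians, and -0.302 in APR-AZA against APR with array weights. In APR-AZA against AZA, where neither gene was called, HSPA1A changed sign to 0.0057 after repeated quantile normalization and lay between -0.0425 and 0.0227 when an array was left out, and HSPA1B changed sign to -0.0062 with centring and lay between -0.0219 and 0.0289 when an array was left out. The heat shock element count of 9 members became 19 with the 2-unit letters. The replicate number of the titles did not pair the arrays, with correlations of -0.253 to 0.142 between same-numbered arrays and -0.189 to 0.28 between others. With the replicate block 13 members were called in AZA against NT, 17 in APR-AZA against NT and 19 in APR-AZA against APR. Of the TRiC and prefoldin list, 6 genes were called with the block in AZA against NT. Numbers over all genes with the block are not given here. The calls lost with the block were DNAJA1 (adjusted p = 0.0668), HSPD1 (0.0522) and, outside the members, HSPB6 (0.0692) in AZA against NT, and BAG3 (0.0719) in APR-AZA against APR. The causes were not tested. With 3 arrays per group, changes as small as those with APR alone could be missed.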
